A study of Mus musculus with 24 samples.

Results

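The miR-181 family was measured here by 4 of the 558 mouse miRNA probes on each array, those named exactly mmu-miR-181a, mmu-miR-181b, mmu-miR-181c and mmu-miR-181d (the species prefix is left out below). These are the guide strands of the family, the strands that enter the silencing complex. All 4 probes were detected above background on 24 of 24 arrays, none carried a fail code, and all 4 entered the tests, which covered 365 probes. The samples were 3 sister carcinoma lines isolated from the same mouse mammary tumour, 67NR (nonmetastatic in the labels), 4T1 (highly metastatic) and 4TO7 (systemically invasive), grown for 6 days in 3D organotypic culture in a compliant or a rigid microenvironment. Each combination received either TGF-beta or a compound that blocks its type I receptor (basal in the labels, the inhibitor below), and each of the 12 groups had 2 arrays. No group lacked both agents, so each difference with TGF-beta is relative to the inhibitor, and the effects of the 2 agents cannot be told apart. Separate cultures for the 2 arrays of a group are not stated in the labels. The p-values therefore cover only the spread between these arrays, which may be technical.

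A microRNA guides the silencing complex to messenger RNAs that pair with its seed, bases 2 to 8 from the 5′ end. Members of a family that share a seed can bind many of the same messengers, while the rest of the sequence differs. In normal tissue the miR-181 family is known for high levels in lymphocyte precursors, where miR-181a tunes T cell receptor signalling. In carcinoma cells it has been linked to TGF-beta, the growth factor that drives epithelial-mesenchymal transition through its receptors and the Smad proteins.

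The mature sequences show how alike the 4 members are, and are printed 5′ to 3′ with the seed in capitals, from RefSeq (GRCm38.p6), where all 6 miR-181 names of the arrays used here were found.

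miR-181a: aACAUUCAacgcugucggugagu

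miR-181b: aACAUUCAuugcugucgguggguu

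miR-181c: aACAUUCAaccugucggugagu

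miR-181d: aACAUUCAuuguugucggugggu

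The seed is the same in all 4, and of the 1679 mature names in the RefSeq table these 4 are the only ones that carry it. miR-181a and miR-181c differ by 1 edit (a base changed, gained or lost), which lies after the seed. miR-181b and miR-181d differ by 2 edits, the substitution C12U (miR-181b first, counted from the 5′ end) and the last base, which miR-181d lacks. miR-181a and miR-181b are 4 edits apart, and miR-181c and miR-181d are 5. How far a probe also binds a near-identical member was not tested, so each value below may hold a share of another member's signal.

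The members come from 3 pairs of neighbouring hairpins. miR-181a is made from Mir181a-1, with the mature strand at chr1:137966468-137966490, and from Mir181a-2, at chr2:38852741-38852763, both on the plus strand. miR-181b is made from the neighbours of these genes, Mir181b-1 at chr1:137966650-137966673 and Mir181b-2 at chr2:38853845-38853868. The hairpins of the chromosome 1 pair lie 97 bases apart and those of the chromosome 2 pair 1019 bases apart. The chromosome 2 pair overlaps the protein-coding gene Nr6a1 and its antisense RNA gene Nr6a1os, while the nearest protein-coding gene to the chromosome 1 pair is Ptprc, which encodes the leukocyte protein CD45. miR-181c, at chr8:84178924-84178945, and miR-181d, at chr8:84178759-84178781, both on the minus strand, come from hairpins 85 bases apart, whose nearest protein-coding gene is Nanos3. Because miR-181a and miR-181b each have 2 genes with the same mature sequence, their probes cannot tell which gene a signal came from.

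Between 313 and 357 miRNA probes were detected per array, and arrays of the same group correlated at r = 0.995 to 0.999 over the tested probes. Levels below are log2 relative intensities after quantile normalization, in which arrays that give a probe the same rank get the same value. Of the 6 blood markers on the arrays, 5 (miR-142-3p, miR-142-5p, miR-150, miR-223 and miR-144) were detected on no array and miR-451 on 24. The summed level of that list was 10.4 to 10.9 (log2) with the inhibitor and 10.5 to 11.0 with TGF-beta. That sum includes the 5 undetected probes, and miR-451 alone ran from 9.67 to 10.4. Of 4 muscle markers on the arrays, 1 was detected on all arrays and 2 on none. The same held for 4 neural and liver markers. Of 6 embryonic stem cell markers 2 were detected on all arrays and 3 on none, and 2 endothelial markers on none. The mammary epithelial list had all 7 members detected on at least 1 array and 2 of them on all arrays.

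The first question was how the family responds to TGF-beta signalling. Over all lines, on 12 arrays against 12, miR-181b rose by 0.92 ± 0.02 (log2, SE), or 1.89-fold, and miR-181a by 0.88 ± 0.02, or 1.84-fold. miR-181d rose by 0.41 ± 0.02, or 1.33-fold. miR-181c did not share the rise and fell by 0.08 ± 0.02. Each p is from limma with Benjamini-Hochberg adjustment over the 365 probes, called where under 0.05 (at most 0.013 for these 4). In RNA from whole cultures, fewer cells of a type and less RNA per cell cannot be told apart. All 4 members thus passed the test, where 39.5% of the tested probes did (21.4% higher and 18.1% lower), with a median of 0.64 over the members against 0.01 over all tested probes. The split of the 144 called probes, 78 higher and 66 lower, moved with the scaling, to 43 and 84 with median scaling over all mouse probes and to 100 and 52 with median scaling over the probes detected on every array. By size of rise the members ranked 1 (miR-181b), 2 (miR-181a) and 7 (miR-181d) of 365, and the next in size was miR-22, which rose by 0.74. The published study of these cells singled out this family, so the count is not independent evidence.

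**Figure D1:**
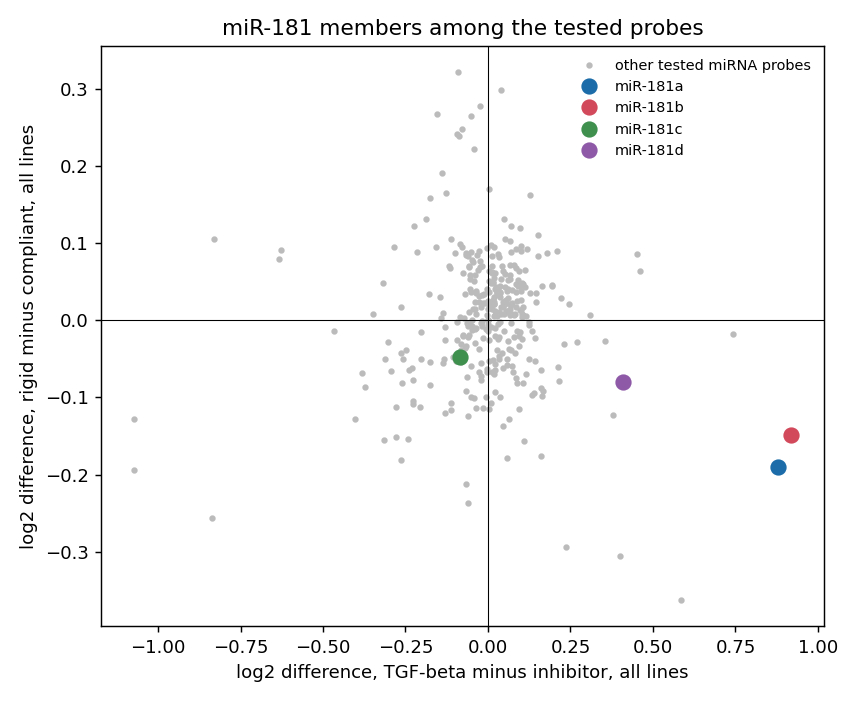
Each point is 1 of the 365 tested probes, with the log2 difference between TGF-beta and inhibitor on the x axis and between rigid and compliant culture on the y axis, both over all lines. miR-181b (0.92) and miR-181a (0.88) lie farthest to the right, miR-181d lies at 0.41, and miR-181c lies just left of 0.

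miR-181a was read on every array as follows. In 67NR the inhibitor arrays stood at 7.49 and 7.43 in compliant and at 7.26 and 7.14 in rigid culture, against 8.31 and 8.33, and 7.94 and 7.91, with TGF-beta. In 4TO7 they stood at 7.07 and 6.96 in compliant and at 6.99 and 7.05 in rigid culture, against 7.997 and 7.986, and 7.84 and 7.84, with TGF-beta. In 4T1 the inhibitor arrays stood at 8.21 and 8.34 in compliant and at 8.13 and 8.13 in rigid culture, against 9.21 and 9.30, and 9.08 and 9.02, with TGF-beta. In every one of the 6 pairings of line with microenvironment, both TGF-beta arrays were above both inhibitor arrays. As deposited, before any scaling, the relative intensity of miR-181a ran from 108 to 708.

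miR-181b, whose genes lie beside those of miR-181a, gave a like picture. In 67NR its inhibitor arrays stood at 7.70 and 7.65 in compliant and at 7.40 and 7.36 in rigid culture, against 8.41 and 8.50, and 8.26 and 8.14, with TGF-beta. In 4TO7 they were at 7.33 and 7.19, and at 7.13 and 7.23, against 8.27 and 8.26, and 8.12 and 8.13. In 4T1 they were at 8.08 and 8.11, and at 8.01 and 8.01, against 8.99 and 9.10, and 9.01 and 8.998. The TGF-beta arrays were again the higher in all 6 pairings, with no overlap.

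miR-181d, from the chromosome 8 pair, moved the same way over a smaller range. In 67NR its inhibitor arrays stood at 7.46 and 7.48 in compliant and at 7.18 and 7.22 in rigid culture, against 7.82 and 7.78, and 7.63 and 7.60, with TGF-beta. In 4TO7 they were at 7.20 and 7.17, and at 7.21 and 7.18, against 7.62 and 7.69, and 7.60 and 7.63. In 4T1 they were at 8.26 and 8.41, and at 8.36 and 8.29, against 8.67 and 8.82, and 8.74 and 8.77. Here too the groups did not overlap in any of the 6 pairings. Of the 365 tested probes only 4, or 1.10%, stood higher with TGF-beta without overlap in all 6, and miR-181a, miR-181b and miR-181d are 3 of them.

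miR-181c, the neighbour of miR-181d, was close to level. In 67NR its inhibitor arrays stood at 7.46 and 7.46 in compliant and at 7.35 and 7.27 in rigid culture, against 7.20 and 7.17, and 7.27 and 7.22, with TGF-beta. In 4TO7 they were at 7.38 and 7.26, and at 7.22 and 7.38, against 7.26 and 7.22, and 7.22 and 7.28. In 4T1 they were at 8.43 and 8.52, and at 8.53 and 8.38, against 8.48 and 8.58, and 8.36 and 8.36. The TGF-beta arrays lay below the inhibitor arrays without overlap in 2 pairings, compliant 67NR and rigid 4T1, and in no pairing above them. The share of all tested probes that did so in as many pairings was not counted, so this count stands without a background.

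**Figure D2:**
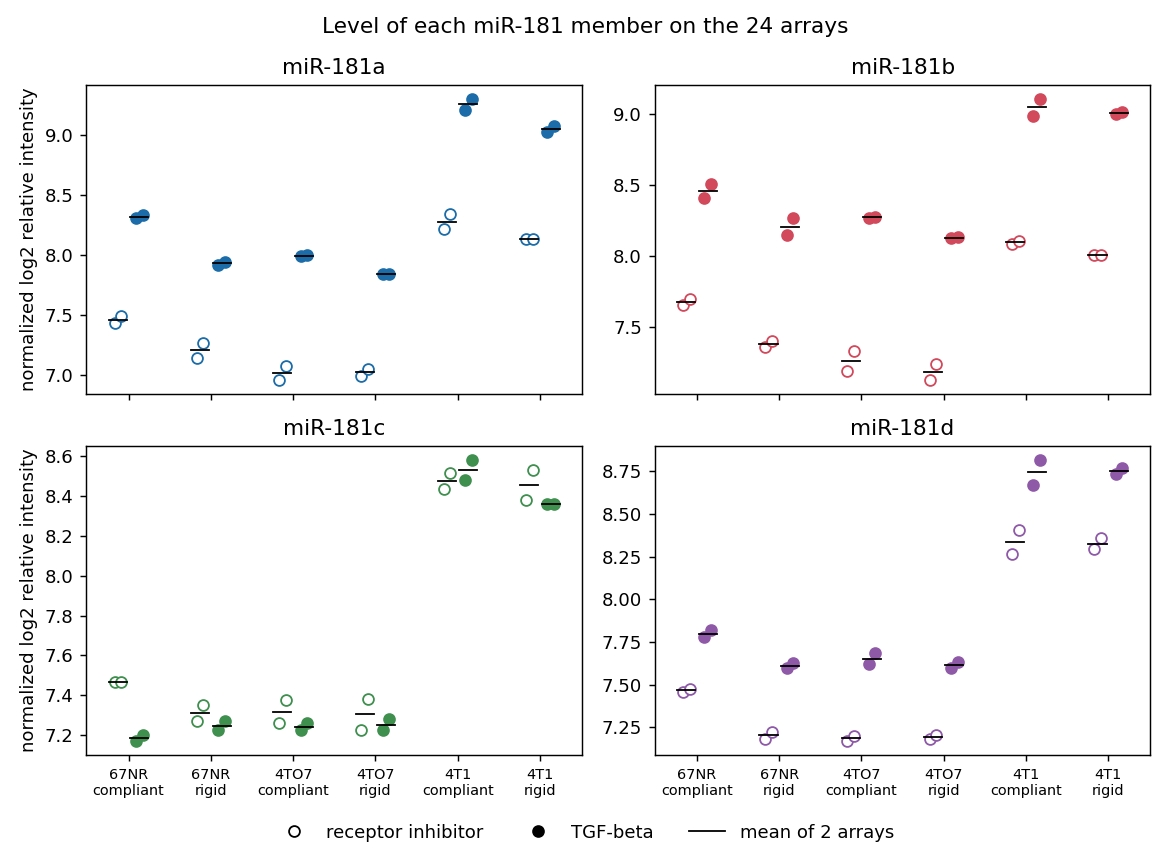
Normalized log2 relative intensity of each member (1 panel each, with its own y axis) in the 6 pairings of line and microenvironment. Open points are inhibitor arrays, filled points TGF-beta arrays, and bars the mean of 2 arrays. For miR-181a, miR-181b and miR-181d the filled points are above the open ones in all 6 pairings, and for miR-181c in none.

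Within single lines the 3 rising members passed the test each time with quantile normalization. Without scaling and with spike-in scaling miR-181d in 67NR was not called (0.22 in both, adjusted p = 0.24 and 0.69 in limma), and neither was miR-181c. In 67NR miR-181a rose by 0.79 ± 0.04, miR-181b by 0.80 ± 0.04 and miR-181d by 0.37 ± 0.04, and all 4 members were called, 3 higher and 1 lower, where 11.0% of the probes were (3.29% higher and 7.67% lower). In 4TO7 the rises were 0.90 ± 0.04, 0.98 ± 0.04 and 0.44 ± 0.04, with 3 of 4 called, where 21.4% of the probes were (9.59% higher). In 4T1 they were 0.95 ± 0.04, 0.97 ± 0.04 and 0.42 ± 0.04, with 3 of 4 called, where 31.8% of the probes were (12.6% higher). miR-181c fell in 67NR, by 0.17 ± 0.04 (adjusted p = 0.015 in limma), and differed by -0.06 ± 0.04 in 4TO7 (adjusted p = 0.33 in limma) and by -0.02 ± 0.04 in 4T1 (adjusted p = 0.73 in limma). In compliant culture all 4 members were called, where 29.6% of the probes were, miR-181c at -0.10 ± 0.03 (adjusted p = 0.043 in limma), a call lost when any 1 of 13 arrays was left out (adjusted p up to 0.15 in limma). The call on miR-181c was also lost in 9 of 12 other processing settings. Its difference ran from -0.10 to 0.06 over the 12 (adjusted p up to 0.97 in limma). In rigid culture 3 of 4 were called, where 24.1% of the probes were. Counted over 4 members and 6 pairings, 19 of the 24 differences passed, 18 of them higher, and 9 passed with spike-in scaling. The share of all probes that passed was 8.49% and 4.93% in compliant and rigid 67NR, 15.1% and 13.2% in 4TO7, and 17.8% and 18.4% in 4T1. The share that passed as higher was 2.19%, 1.64%, 6.30%, 4.93%, 7.12% and 5.75% in the same order. The difference that was lower, where 6.30% of the probes were, was miR-181c in compliant 67NR, at -0.28 ± 0.06 (adjusted p = 0.0058 in limma).

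**Figure D3:**
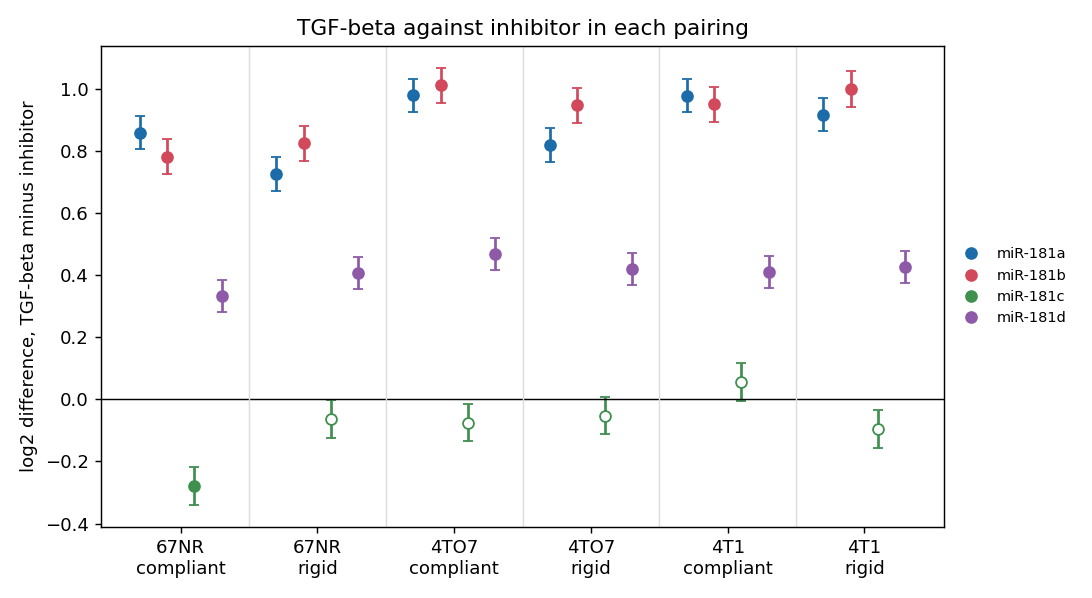
Log2 difference between TGF-beta and inhibitor for each member in each pairing of line and microenvironment, with SE bars, filled where the adjusted p was under 0.05. miR-181a lies between 0.73 and 0.98 and miR-181b between 0.78 and 1.01, miR-181d between 0.33 and 0.47, and miR-181c between -0.28 and 0.05.

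The fall of miR-181c was the one response of the family to TGF-beta over all lines that rested on the scaling. It was not called with median scaling over the probes detected on every array (-0.04, adjusted p = 0.26 in limma) or in the authors' value table (-0.03, adjusted p = 0.31 in limma), nor without scaling, and with slide as a fixed block its adjusted p was 0.051. Scaled on the spike-in probes, which put the median of all tested probes at 0.12, its difference turned to 0.04 and was not called. In 67NR its fall was not called with median scaling over detected probes (-0.087, adjusted p = 0.21 in limma), in the authors' table (-0.084, adjusted p = 0.19 in limma), without scaling (-0.29, adjusted p = 0.089 in limma) or with spike-in scaling (-0.30, adjusted p = 0.58 in limma). It was also lost when any 1 of 3 67NR arrays was left out (replicate 2 of compliant and of rigid culture with TGF-beta, and replicate 1 of rigid culture with the inhibitor), with an adjusted p of up to 0.080 in limma. Matched TGF-beta and inhibitor arrays shared a slide in 4 pairs, all in 67NR and 4TO7 and none in 4T1. In rigid 4TO7 the inhibitor side of the pair was the mean of 2 arrays. The differences ran from 0.65 to 1.03 for miR-181a, from 0.71 to 1.07 for miR-181b, from 0.36 to 0.52 for miR-181d and from -0.26 to -0.03 for miR-181c.

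The responses of the members to TGF-beta were compared with each other by an exact two-sided permutation of the treatments within the 6 pairings (46656 arrangements, smallest possible p 4.3e-05), in 6 pairs of members with Benjamini-Hochberg adjustment. The rise of miR-181a was larger than the change of miR-181c by 0.96 ± 0.13 (SD over 6 pairings), although the sequences differ by 1 edit. Within the chromosome 8 pair, miR-181d exceeded miR-181c by 0.50 ± 0.09. miR-181a exceeded miR-181d by 0.47 ± 0.09, miR-181b exceeded miR-181d by 0.51 ± 0.06, and miR-181b exceeded miR-181c by 1.003 ± 0.094. Each of these 5 differences had the same sign in 6 of 6 pairings and the smallest p that the exact permutations can give (adjusted p = 5.1e-05). miR-181a and miR-181b differed by -0.04 ± 0.08, positive in 2 of 6 pairings (exact permutation p = 0.094, adjusted p = 0.094). On the deposited scale, where any constant of an array cancels, that difference was -0.05 ± 0.06 and passed (exact permutation p = 0.036, adjusted p = 0.036), so the call on this pair rests on the scaling.

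Whether the response differed between lines or microenvironments was tested in limma. Between lines none of the 4 members passed the F test, with an adjusted p of 0.12 for miR-181a, 0.062 for miR-181b, 0.19 for miR-181c and 0.55 for miR-181d, where 14.5% of the probes passed. At an unadjusted p under 0.05, miR-181a and miR-181b were 2 of 4, both with the smallest rise in 67NR, where 107 of the 365 probes passed that threshold. The rise of miR-181a was 0.94 ± 0.03 in compliant and 0.82 ± 0.03 in rigid culture. That difference of -0.12 ± 0.04 had an adjusted p of 0.67 in limma and an unadjusted p of 0.016. No member and none of the 365 probes passed this test (0%), and 22 probes had an unadjusted p under 0.05, miR-181a among them.

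Each miR-181a hairpin also yields a passenger strand, the opposite arm that is mostly discarded. The passenger strands differ between the 2 genes, and so carry information that the guide cannot. The 2 hairpins are printed with both strands in capitals, the guide first.

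Mir181a-1: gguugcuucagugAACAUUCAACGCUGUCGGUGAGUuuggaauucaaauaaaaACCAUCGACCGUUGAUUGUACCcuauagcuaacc

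Mir181a-2: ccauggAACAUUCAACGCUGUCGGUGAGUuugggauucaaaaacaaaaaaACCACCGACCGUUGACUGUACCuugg

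The passenger strands, with the bases at which they differ in capitals, show how small that difference is.

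miR-181a-1*: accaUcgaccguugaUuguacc

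miR-181a-2*: accaCcgaccguugaCuguacc

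They differ by the substitutions U5C and U16C (miR-181a-1* first, counted from the 5′ end). Both probes were detected on all 24 arrays, miR-181a-1* near background, with a detection p of up to 0.042. They are not among the 4 members, and the permutation tests on them were added after the values were seen.

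miR-181a-2*, from chromosome 2, rose with TGF-beta by 0.22 ± 0.03 over all lines (adjusted p = 4.0e-06 in limma). In 4T1 its inhibitor arrays stood at 6.84 and 6.73 in compliant and at 6.96 and 6.76 in rigid culture, against 7.09 and 7.16, and 7.18 and 7.17, with TGF-beta. In 4TO7 they were at 6.97 and 6.85, and at 6.995 and 7.04, against 7.14 and 7.15, and 7.17 and 7.21. In 67NR they were at 7.29 and 7.41, and at 7.23 and 7.25, against 7.48 and 7.36, and 7.44 and 7.42. The treatments did not overlap in 5 of 6 pairings, the exception being compliant 67NR, and the share of all tested probes with as many was not counted.

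miR-181a-1*, from chromosome 1, ran from 6.41 to 6.86 over all arrays, and differed by 0.02 ± 0.03 with TGF-beta (adjusted p = 0.52 in limma). Its treatments were separate in 1 of 6 pairings, again with no count over all tested probes beside it. The response of miR-181a-2* exceeded that of miR-181a-1* by 0.20 ± 0.06 (SD over 6 pairings), in 6 of 6 pairings (exact permutation p = 8.6e-05, the same after adjustment over 3 pairs of strands). Both passenger strands responded less than miR-181a itself, by 0.66 ± 0.09 for miR-181a-2* and by 0.86 ± 0.07 for miR-181a-1*, each in 6 of 6 pairings with the smallest p the exact permutations give (adjusted p = 6.4e-05). By mean level miR-181a-1* stood at percentile 9.9 of the tested probes and miR-181a-2* at percentile 21.6. Whether nearness to background flattened their responses was not tested, so these differences do not show that only 1 of the 2 genes responds.

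The next question was how the family differs between the lines, each compared on 8 arrays against 8. All 4 members were higher in 4T1 than in 67NR, where 89.6% of the probes differed and 30.7% were higher. miR-181c was higher by 1.15 ± 0.03, or 2.22-fold, miR-181d by 1.02 ± 0.03, miR-181a by 0.95 ± 0.03 and miR-181b by 0.61 ± 0.03. Against 4TO7 the 4 members were higher in 4T1 by 1.21 ± 0.03 (miR-181a), 1.18 ± 0.03 (miR-181c), 1.13 ± 0.03 (miR-181d) and 0.83 ± 0.03 (miR-181b), where 63.0% of the probes differed and 23.0% were higher. The medians over the members were 0.98 against 67NR and 1.15 against 4TO7, beside -0.22 and -0.07 over all tested probes. These are not extreme among the line differences, where miR-182 was higher in 4T1 than in 67NR by 2.89 and miR-200c by 2.84.

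Across the 8 arrays of a line miR-181c was the steadiest, at 7.17 to 7.46 in 67NR, 7.22 to 7.38 in 4TO7 and 8.36 to 8.58 in 4T1. The 4T1 arrays of miR-181c thus lay above every array of the other lines, in either treatment. miR-181d behaved likewise, at 7.18 to 7.82, 7.17 to 7.69 and 8.26 to 8.82. The detection p of miR-181c reached 0.013 in 67NR and 0.0050 in 4TO7, against at most 0.00019 on any array for miR-181d. Whether nearness to background flattened the values of miR-181c in these 2 lines was not tested. For miR-181a and miR-181b the lines overlapped, since 67NR with TGF-beta reached 8.33 and 8.50 while 4T1 with the inhibitor started at 8.13 and 8.01.

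Between the other two lines the family differed little. miR-181a was lower in 4TO7 than in 67NR by 0.26 on the log2 scale, at -0.26 ± 0.03, miR-181b by -0.22 ± 0.03 and miR-181d by -0.11 ± 0.03, while miR-181c differed by -0.02 ± 0.03 (adjusted p = 0.48 in limma). The count of 3 of 4 is no more than the background, as 86.8% of the probes differed and 57.0% of all tested probes were lower, and the members' median of -0.16 was near the -0.15 of all tested probes. The call on miR-181d was lost with median scaling over the probes detected on every array (-0.02, adjusted p = 0.59 in limma) and in the authors' value table (-0.04, adjusted p = 0.27 in limma). Without scaling and with spike-in scaling miR-181c was also called lower, at -0.17 and -0.26, and in the 2 former settings its difference was 0.04 and 0.03.

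Levels of other cell type markers moved with the lines. The summed level of the 7 mammary epithelial markers, which include the miR-200 family, was 9.30 to 9.42 (log2) in 67NR, 9.27 to 9.64 in 4TO7 and 10.8 to 11.0 in 4T1. The sum hides markers that went the other way. Against 67NR, 5 were called higher in 4T1 and 1 lower, where 30.7% and 58.9% of all tested probes were. Against 4TO7, 5 were called higher in 4T1 and 2 lower, miR-205 among them (-0.82), where 23.0% and 40.0% of all tested probes were. miR-205 was detected on only 2 of the 24 arrays, so its difference rests mostly on undetected values. The summed level of the 5 fibroblast and mesenchymal markers was 13.6 to 13.8 in 67NR, 13.1 to 13.2 in 4TO7 and 12.8 to 13.1 in 4T1. That sum was mostly miR-214, which ran from 12.7 to 13.7 over all arrays, while no other marker of the list exceeded 9.08. The part of either in the line differences of the miR-181 family was not tested.

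In the order of its 12 group means, miR-181a ran from inhibitor-treated 4TO7 (7.01 compliant, 7.02 rigid) through inhibitor-treated 67NR (7.20 rigid, 7.46 compliant) to rigid 4TO7 with TGF-beta (7.84), rigid 67NR with TGF-beta (7.93) and compliant 4TO7 with TGF-beta (7.99). Above these came inhibitor-treated 4T1 (8.13 rigid, 8.27 compliant), compliant 67NR with TGF-beta (8.32) and 4T1 with TGF-beta (9.05 rigid, 9.25 compliant). Neighbours in that order overlapped for the 2 inhibitor-treated 4TO7 groups and for compliant inhibitor-treated 4T1 beside compliant 67NR with TGF-beta. For miR-181b the order again began with inhibitor-treated 4TO7 (7.18 rigid, 7.26 compliant, not separate) and ended with 4T1 with TGF-beta (9.01 rigid, 9.04 compliant, not separate). For miR-181d 8 groups of 67NR and 4TO7 (7.19 to 7.80) lay below the 4 groups of 4T1 (8.33 to 8.75). For miR-181c the 8 groups of 67NR and 4TO7 spanned only 7.19 to 7.46, and most neighbours among them overlapped.

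The passenger strands did not follow miR-181a in the comparisons of 4T1 with the other lines. Both were lower in 4T1 than in 67NR, where 58.9% of all tested probes were called lower and the median of all was -0.22, miR-181a-2* at -0.37 ± 0.03 (adjusted p = 1.2e-08 in limma) and miR-181a-1* at -0.22 ± 0.03 (adjusted p = 1.2e-05 in limma), while miR-181a was higher by 0.95. The value of miR-181a-1* is thus that of the median probe. In 4T1 against 4TO7, where 40.0% of the probes were called lower and the median was -0.07, they differed by -0.08 ± 0.03 (adjusted p = 0.042 in limma) and by -0.06 ± 0.03 (adjusted p = 0.11 in limma).

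**Figure D4:**
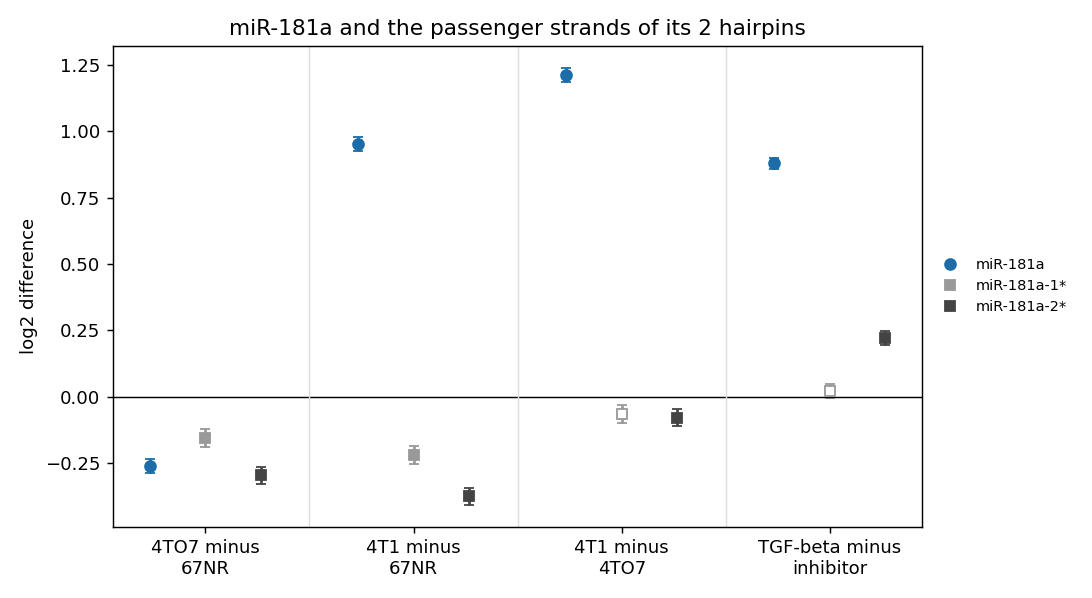
Log2 differences with SE bars of miR-181a (circles) and its passenger strands (squares) in the 3 comparisons of lines and between TGF-beta and inhibitor, filled where the adjusted p was under 0.05. In 4T1 against 67NR miR-181a lies at 0.95 and the passenger strands at -0.22 and -0.37.

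Rigid culture was compared with compliant culture, 12 arrays against 12. Of the members, 3 were slightly lower in rigid culture. miR-181a fell by 0.19 on the log2 scale (SE 0.02, adjusted p = 1.7e-05 in limma), miR-181b by 0.15 (SE 0.02, adjusted p = 0.00036 in limma) and miR-181d by 0.08 (SE 0.02, adjusted p = 0.015 in limma), while miR-181c differed by -0.05 ± 0.02 (adjusted p = 0.19 in limma). That is 3 of 4, where 21.9% of the probes passed and 11.2% were lower, with a median of -0.11 over the members and 0.01 over all probes. The largest falls of other miRNAs were of miR-146a (0.36) and miR-146b (0.31), which dampen NF-kappa-B signalling.

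By line the order of the differences turned with the scaling. With quantile normalization they were largest in 67NR for miR-181a, miR-181b and miR-181d. There miR-181a fell by 0.32 (SE 0.04, adjusted p = 4.3e-05 in limma), miR-181b by 0.27 (SE 0.04) and miR-181d by 0.23 (SE 0.04), so that 3 of 4 passed, all lower, where 11.0% of the probes passed (4.66% lower). The arrays listed above show it in both treatments, with miR-181a at 7.26 and 7.14 on rigid against 7.49 and 7.43 on compliant culture with the inhibitor, and at 7.94 and 7.91 against 8.31 and 8.33 with TGF-beta. In 4TO7 none of the 4 passed, where 2.74% of the probes did, and only miR-181b had an unadjusted p under 0.05 (-0.11 ± 0.04, adjusted p = 0.16 in limma). In 4T1 only miR-181a passed, at -0.17 ± 0.04 (adjusted p = 0.010 in limma), where 7.40% of the probes did (3.84% lower), and that call was lost without either of 2 compliant 4T1 arrays (replicate 2 of the inhibitor and of TGF-beta), at -0.14 and -0.15. With the inhibitor miR-181a and miR-181b passed (-0.13 ± 0.03 and -0.15 ± 0.03), where 6.30% of the probes did. Both of these calls were lost with median scaling over all mouse probes, without scaling, with spike-in scaling and with slide as a fixed block (adjusted p = 0.15 for each in limma), and that on miR-181a when any 1 of 4 inhibitor arrays was left out (adjusted p up to 0.076 in limma): compliant 67NR replicate 1, rigid 67NR replicate 2, and replicate 1 of compliant and of rigid 4TO7. With TGF-beta the same 2 passed (-0.25 ± 0.03 and -0.14 ± 0.03), where 7.95% did. Taken by line and treatment, 3 of 4 members were called in 67NR with the inhibitor (7.95% of the probes), 3 of 4 in 67NR with TGF-beta (4.93%) and 1 of 4 in 4T1 with TGF-beta (4.38%). In 4T1 with the inhibitor and in 4TO7 with the inhibitor or TGF-beta none was called, where 3.84%, 1.37% and 2.47% of the probes were, and at an unadjusted p under 0.05 the members were 1, 0 and 2.

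The rigidity effect differed between lines for miR-181a (F test, adjusted p = 0.023 in limma) and miR-181d (adjusted p = 0.019 in limma), and did not pass for miR-181b (adjusted p = 0.061 in limma) or miR-181c (adjusted p = 0.67 in limma), where 8.22% of the probes passed. Between 2 lines, the effect in 67NR differed from that in 4TO7 for miR-181a and miR-181d (6.85% of the probes) and from that in 4T1 for miR-181b and miR-181d (5.48%). Between 4TO7 and 4T1 none of the 4 passed, nor had an unadjusted p under 0.05, where 1.64% of the probes passed. Neither call held with median scaling over all mouse probes, without scaling, with spike-in scaling or with slide as a fixed block (0 of 4 in each), and 1 of 4 held with median scaling over the probes detected on every array. The count also moved with single arrays, from 0 without replicate 2 of rigid 67NR with TGF-beta to 3, and it was 1 without any 1 of 6 others (5 of 67NR and replicate 2 of compliant 4TO7 with the inhibitor).

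**Figure D5:**
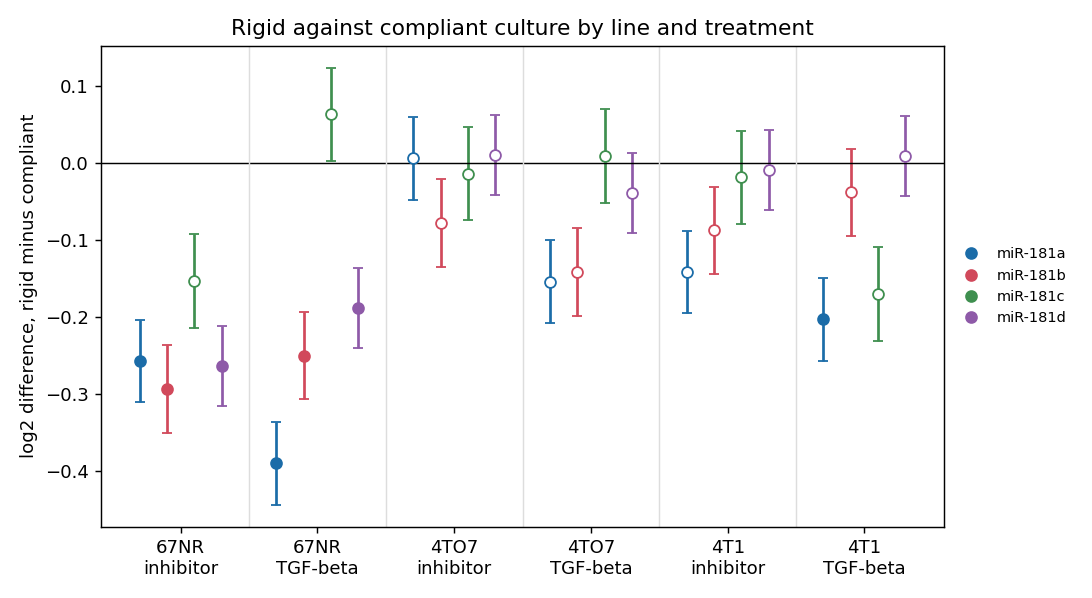
Log2 difference between rigid and compliant culture for each member in each line and treatment, with SE bars, filled where the adjusted p was under 0.05. The filled points are those of miR-181a, miR-181b and miR-181d in 67NR in both treatments (-0.19 to -0.39) and of miR-181a in 4T1 with TGF-beta (-0.20).

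These calls on rigidity depended on the scaling between arrays. Without scaling, and with scaling on the spike-in probes, none of the 4 members was called over all lines or in any line, although each called difference kept its sign. Over all lines miR-181a stood at -0.20 without scaling and at -0.24 with spike-in scaling. In 67NR it stood at -0.18 and -0.16, in 4TO7 at -0.12 and -0.16, and in 4T1 at -0.30 and -0.40, so that the largest difference was then in 4T1. With spike-in scaling the differences of miR-181b and miR-181d were also larger in 4T1 (-0.24 and -0.22) than in 67NR (-0.13 and -0.07). That scaling put the median of all tested probes at 0.14 in 67NR and at -0.21 in 4T1. Rigid and compliant 67NR arrays of the same treatment shared no slide. With slide as a fixed block, miR-181a in 67NR stayed at -0.32 (adjusted p = 0.0019 in limma), and the call on miR-181d over all lines was lost (-0.08, adjusted p = 0.084 in limma). The 3 rigid and compliant pairs that did share a slide, all in 4TO7 and 4T1, differed by -0.18 to -0.08 for miR-181a by -0.14 to -0.03 for miR-181b, by -0.17 to 0.02 for miR-181c and by -0.01 to 0.03 for miR-181d.

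Over the 24 arrays, miR-181a and miR-181b varied together (r = 0.97), and with each line's mean removed still did (r = 0.99). Removing the line means, miR-181d followed them (r = 0.97 with miR-181a and 0.98 with miR-181b), and miR-181c did not (r = -0.38 with miR-181a and r = -0.35 with miR-181d). With the line differences left in, miR-181c and miR-181d correlated at r = 0.88. Since all arrays share the normalization and fall into clusters by line, these values describe the data and carry no p. Removing the line means was chosen after the values were seen. It leaves the differences between treatments in r, so these values are not separate from the responses to TGF-beta.

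Among 351 other probes the levels most like that of miR-181a were let-7i (r = 0.91), miR-146a (0.87), miR-135b (0.84), miR-146b (0.84) and miR-132 (0.81), and the least like were miR-322 (-0.89), miR-503 (-0.84) and miR-322* (-0.76). For miR-181b they were let-7i (0.87), miR-135b (0.81), miR-146a (0.78), miR-155 (0.76) and miR-146b (0.74), with miR-322 (-0.81), miR-503 (-0.79) and miR-221 (-0.78) at the other end. miR-181c stood closest to the miR-200 family of epithelial miRNAs, with r = 0.99 for miR-141, miR-429, miR-200a and miR-200b and 0.98 for miR-200c. miR-181d shared 4 of its 5 nearest with miR-181c (miR-200c, miR-141, miR-429 and miR-200a, r = 0.91 to 0.92), the other being miR-146a (0.91). The likeness of miR-181c to the miR-200 family followed the lines, since with line means removed r was 0.55 for miR-141 and between -0.08 and 0.28 for the other four. On 16 of the 24 arrays, those of 67NR and 4TO7, miR-200b, miR-200c and miR-429 were not detected.

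With line means removed, the nearest to miR-181a were miR-22 (r = 0.86), miR-34a (0.83) and the passenger strand miR-181a-2* (0.83). The same 3 were among the 5 nearest for miR-181b and for miR-181d, with miR-181a-2* at 0.85 for each. At the other end miR-365 stood lowest for miR-181a (-0.95), miR-181b (-0.96) and miR-181d (-0.92). These r still hold the differences between treatments, and so are not separate from the responses to TGF-beta. With TGF-beta over all lines miR-22 differed by 0.74, miR-34a by 0.36, miR-181a-2* by 0.22 and miR-365 by -0.63.

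Other miRNAs linked to TGF-beta in other systems give the scale of these responses. Of a list of 17 miRNAs reported as raised, 12 were tested, with a median of 0.07. Of these 5 rose over all lines and none fell, where 21.4% of all tested probes rose and 18.1% fell. The count leaves out miR-23a and miR-27a, whose probes also carry the names miR-23b and miR-27b and differed by -0.09 and -0.02. miR-155, induced in inflammation, rose by 0.46 ± 0.03, miR-21, an oncogenic miRNA, by 0.45 ± 0.05, and miR-182 by 0.16 ± 0.03. Of 15 tested miRNAs reported as lowered, 7 fell and 1 rose, beside the same shares of all tested probes, with a median of -0.13. miR-30a fell by 0.32 on the log2 scale, miR-205 by 0.27 and miR-30d by 0.26. The one that rose, named after its value was seen, was miR-200c (0.08 ± 0.03, adjusted p = 0.036 in limma). miR-205 was detected on only 2 of the 24 arrays and miR-200c on 8, so both differences rest mostly on undetected values. miR-181a and miR-181b rose by more than each tested member of the raised list. That follows from theirs being the largest rises of all tested probes, and is no separate result.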

How the data were processed

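MicroRNA was profiled on 24 two-dye arrays of 5 slides, with 558 mouse miRNA probes and 35 spike-in probes. Per the file headers, the deposited intensity is the sample dye over a reference dye, background-subtracted and corrected for labelling by the authors, linear and not scaled between arrays. The authors also deposited a detection p-value and an error for each probe. The authors also deposited log2 values for 338 probes, made as the log2 of these intensities plus 1 constant per array (within 5.9e-06 in the files), by a rule not given in the sources used here.

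Log2 intensities were quantile normalized (limma 3.58.1, R 4.3.3). Probes detected (p under 0.05) on both arrays of at least 1 group, with the fail code on fewer than 12 arrays, were kept (365). A model of 12 group means (12 residual degrees of freedom) was fitted with lmFit and eBayes with a trend, and p-values were Benjamini-Hochberg adjusted over the 365. The code was tested on simulated data. Slide, the replicate number, array weights, filters, scalings and single arrays left out were tried as alternatives. Named miRNAs beyond the members were the passenger strands of miR-181a, the 5 most and 3 least alike in level, up to 3 of the largest rises and falls in a comparison, and, of the lists of miRNAs raised or lowered by TGF-beta elsewhere, the 3 with the smallest p. The members and lists were chosen with earlier results of these data known. Precision is limited by there being 2 arrays in a group.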

Additional observations from a re-analysis of the deposited data

Results flagged for a closer look

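The effect of rigid culture on miR-181a differed between the lines by a test of the difference itself (F test over 3 lines in limma, adjusted p = 0.023). The difference between rigid and compliant culture was -0.32 ± 0.04 in 67NR, -0.07 ± 0.04 in 4TO7 and -0.17 ± 0.04 in 4T1. The same test passed for miR-181d (adjusted p = 0.0185 in limma), whose differences were -0.23 ± 0.04 in 67NR, -0.01 ± 0.04 in 4TO7 and -0.00067 ± 0.037 in 4T1. With quantile normalization the effect in 67NR was larger in size than in 4TO7 for both members, by 0.25 ± 0.05 for miR-181a (adjusted p = 0.011 in limma) and by 0.21 ± 0.05 for miR-181d (adjusted p = 0.024 in limma). Neither F test passed with median scaling over all mouse probes, without scaling, with spike-in scaling or with slide as a fixed block, and 1 member passed with median scaling over the probes detected on every array. With spike-in scaling the difference of miR-181a was -0.16 in 67NR and -0.16 in 4TO7, and that of miR-181d was -0.07 and -0.12.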

How the results depend on the processing

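Leaving out the scaling between arrays, or scaling on the spike-in probes, moved more counts of called members by over 1.5 times than any other alternative, and the filters, the array weights and the authors' value table moved none. Without scaling and with spike-in scaling, the count in 67NR for TGF-beta fell from 4 to 2, those for rigid culture over all lines (from 3), in 67NR (from 3), in 4T1 (from 1), with inhibitor (from 2) and with TGF-beta (from 2) fell to 0, and that of members whose rigidity effect differed between lines from 2 to 0. Spike-in scaling also cut the 19 called pairings of line and microenvironment to 9, and reversed the sign of miR-181c with TGF-beta over all lines (0.036) and in compliant culture (0.059). Without scaling, 2 members differed in the TGF-beta effect between lines, against 0. Median scaling over all probes left 0 members for rigid culture with inhibitor and 0 for the rigidity effect between lines, and median scaling over the probes detected on every array left 1 for the latter. Slide as a fixed block left 0 for rigid culture in 4T1 and with inhibitor, 1 with TGF-beta and 0 for the rigidity effect between lines. The cause was not tested. Leaving out 1 array at a time gave 0 to 1 for rigid culture in 4T1, 1 to 3 with inhibitor, 1 to 2 with TGF-beta, 0 to 1 for the TGF-beta effect between lines and 0 to 3 for the rigidity effect between lines. The rises of miR-181a and miR-181b with TGF-beta over all lines kept their direction and call under all of these, at 0.83 to 0.96 and 0.87 to 1.004. With the replicate block, the count over all lines stayed at 4 for TGF-beta and 3 for rigid culture, and in compliant culture miR-181c lost its call (-0.10, adjusted p = 0.058 in limma). Correlations of same-numbered arrays' deviations ran from -0.33 to 0.49 across the 66 pairs of groups (median 0.09), and within a line, where the block was fitted, from -0.16 to 0.49, with 11 of 18 pairs over 0.1. Over all probes the block raised the calls for TGF-beta from 144 to 162 over all lines and from 40 to 70 in 67NR. It lowered those for 4TO7 against 67NR from 317 to 290. Since not every pair passed 0.1, the main model fits no pairing by number, but these correlations do not settle whether the numbers pair arrays.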
